A study of Mus musculus with 15 samples.

Results

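Semaphorins, plexins, ephrins, Eph receptors, slits, Robo receptors, netrins and Unc5 receptors are the classical families of axon guidance, and here their genes were followed in the mouse heart. The members were all genes on the array whose symbols belong to the series Sema3 to Sema7, Plxn, Eph, Efn, Slit, Robo, Unc5 or Ntn, by the platform's symbols alone. They numbered 62 of the 19057 genes with a symbol, on 155 probes. Gene expression was measured with Illumina arrays in myocardium of male C57Bl/6J mice aged 10 weeks, in 3 groups of 5 arrays. The PBS group received the saline injection alone, and the DOX group received doxorubicin, an anthracycline cancer drug known to harm the heart. The VEGFB_DOX group received AAV9-VEGF-B, a heart-tropic adeno-associated virus carrying vascular endothelial growth factor B, and doxorubicin 7 days later. Hearts were collected 20 hours after the drug or PBS. The drug and vector doses are not given in the sources used here. No group in these samples had the vector without the drug or an empty vector, so the virus and its cargo cannot be told apart, and neither can VEGF-B alone and VEGF-B with the drug. By the series' design text each group had 5 mice. Should any animal have given more than 1 array, the p-values would cover technical spread only.

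These families were named for steering growing nerve fibres, and many of them also steer blood vessels. Semaphorins are secreted or membrane-bound ligands that bind plexins, often with a neuropilin as co-receptor. Ephrins and Eph receptors both sit on cell membranes and signal at cell contacts, and ephrin-B2 and EphB4 are the textbook pair of arterial and venous endothelium. Slits bind Robo receptors, among which Robo4 is the endothelial form, and netrins bind Unc5 receptors and Dcc.

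Of the 62 genes, 49 had at least 1 probe above background on 5 or more arrays and were tested, on 81 probes. A gene counted as higher or lower when any of its tested probes passed an adjusted p of 0.05 in a limma fit over all 24861 tested probes of the table. Values are deposited log2 intensities. Background appears not to have been subtracted from them, so folds understate the change, most for dim probes, and the level of a gene cannot be set against that of another. Single values ran from 6.52 to 14.93, and 6.92 was the background limit. Ventricular cardiomyocyte markers averaged 13.61 to 13.98 on every array, far above background. Marker genes of neurons averaged 7.28 to 7.48, and Th, Prph, Snap25, Chat and Slc18a2 among them were not above background on enough arrays to be tested. A pair of arrays stood apart within their groups. Red-cell genes averaged 11.82 on DOX 2 against 10.74 to 11.2 on the other 4 DOX arrays, and 11.78 on VEGFB_DOX 3 against 10.61 to 10.95 on the other 4 of its group, while PBS arrays gave 11.44 to 11.87. Results that rest on either array are given with and without it.

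In hearts given the VEGF-B vector before the drug, 12 guidance genes were higher and 2 lower than with the drug alone. Those higher were Plxnd1, Sema7a, Sema3f, Ephb1, Sema6d, Ephb4, Robo4, Sema6a, Efna1, Unc5b, Sema5a and Robo1, and those lower were Efna5 and Slit3. They made up 24.5% and 4.08% of the 49 tested members, where 9% and 4.71% of all 12750 tested genes were higher and lower and 13.7% passed either way. The median fold of the members was 0.01, against -0.02 over all genes. Against PBS, 12 members were higher and 3 lower, or 24.5% and 6.12%, where 9.35% and 6.78% of all tested genes were and 16.1% passed either way. Efnb2 was among those higher and Unc5b was not, and those lower were Sema3b, Sema4b and Efnb3. These comparisons share the 5 VEGFB_DOX arrays and are not independent. With doxorubicin alone, 0 of 49 members passed against PBS in limma, where 0.439% of all genes did, and 7 of 81 probes had an unadjusted p under 0.05 (8.64%, against 10.3% of all tested probes). As the tissue was bulk myocardium, fewer cells of a type and less RNA per cell cannot be told apart in any of these differences.

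**Figure D1:**
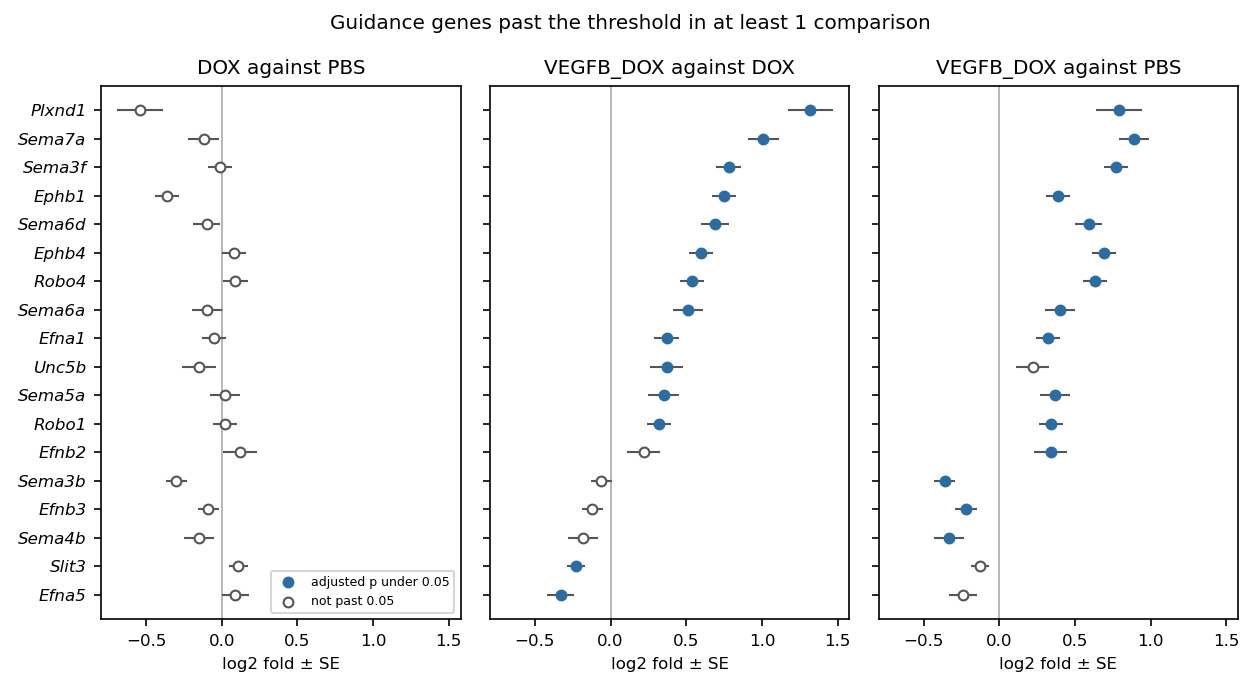
Log2 folds (x axis, ± SE of the limma fit) of the 18 guidance genes past the threshold in at least 1 comparison, with 1 row per gene on its probe of smallest p and 1 panel per comparison, 5 arrays per group. Filled points passed an adjusted p of 0.05: none in DOX against PBS, and Plxnd1 lies farthest right in VEGFB_DOX against DOX at 1.32.

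The DNA just before the start site is shown for Plxnd1, Sema7a, Ephb4 and Robo4, since these genes were among those higher in VEGFB_DOX hearts and have known roles in vessels or, for Sema7a, the second largest fold. Each sequence holds the 250 bases upstream of the start in RefSeq's GRCm38.p6, 5′ to 3′ on the gene's strand. Capitals mark GGAA, the core letters of ETS factor sites, or TTCC, the same letters on the other strand. Plxnd1 lies at chr6:115995006-115995255 (minus strand), Sema7a at chr9:57939862-57940111 (plus strand), Ephb4 at chr5:137349859-137350108 (plus strand) and Robo4 at chr9:37401722-37401971 (plus strand).
Plxnd1: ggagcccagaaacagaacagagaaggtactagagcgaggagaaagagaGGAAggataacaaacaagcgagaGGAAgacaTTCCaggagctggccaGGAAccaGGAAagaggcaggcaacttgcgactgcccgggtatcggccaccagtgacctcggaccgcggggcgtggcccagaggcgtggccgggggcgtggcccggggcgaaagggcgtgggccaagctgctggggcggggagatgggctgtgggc
Sema7a: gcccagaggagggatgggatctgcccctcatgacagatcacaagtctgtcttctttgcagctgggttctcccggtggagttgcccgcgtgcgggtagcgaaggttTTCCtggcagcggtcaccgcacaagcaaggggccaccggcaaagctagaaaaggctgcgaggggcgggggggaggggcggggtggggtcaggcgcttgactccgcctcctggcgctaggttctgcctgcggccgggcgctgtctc
Ephb4: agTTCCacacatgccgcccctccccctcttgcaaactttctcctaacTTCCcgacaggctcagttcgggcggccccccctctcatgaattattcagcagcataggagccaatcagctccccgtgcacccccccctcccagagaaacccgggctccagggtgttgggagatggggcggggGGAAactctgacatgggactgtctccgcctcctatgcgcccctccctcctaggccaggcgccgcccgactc
Robo4: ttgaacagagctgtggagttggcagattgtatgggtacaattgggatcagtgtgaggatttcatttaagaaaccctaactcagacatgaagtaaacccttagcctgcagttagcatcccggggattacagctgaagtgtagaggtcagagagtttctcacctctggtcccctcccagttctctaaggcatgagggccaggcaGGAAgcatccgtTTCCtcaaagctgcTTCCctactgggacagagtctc
GGAA occurs 5 times before Plxnd1, 3 times before Ephb4 and Robo4 and 1 time before Sema7a. It is common: 93.4% of all 32851 upstream windows of this length hold it, with a median of 3 per window. Of the 18 genes, 14 had a window in the RefSeq table, with 17 windows in all, and 15 of the 17 held GGAA. The longer CCGGAA, which contains GGAA, stood in 2 of 17 windows (before Sema4b and Unc5b) and in 12% of all windows. TTCCCA, the core letters of the Notch factor RBPJ, which overlap TTCC, stood in 2 of 17 (Sema5a and Sema6d) and in 21.6% of all. CACGTG, an E-box, stood in 2 of 17 (Sema4b and Sema6d) and in 6.02% of all. Both strands were searched, and a match of letters is not a binding site.

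Plxnd1, which encodes the plexin-D1 receptor of vascular endothelium, had the largest fold of the members against DOX. Against PBS it came after Sema7a. Plxnd1 (probe ILMN_1214608) read 10.03, 10.06, 10.1, 9.93 and 9.92 on the PBS arrays, 9.12, 10.06, 9.04, 9.54 and 9.59 on the DOX arrays, and 10.53, 10.77, 11.09, 10.81 and 10.77 on the VEGFB_DOX arrays. All 5 VEGFB_DOX arrays were above every other array. Of the DOX arrays, 4 lay below the PBS arrays, and DOX 2 lay among them. The signal rose by 1.32 ± 0.15 (log2 ± SE, 2.5-fold) over DOX (limma, adjusted p = 9.41e-06) and by 0.79 ± 0.15 over PBS (adjusted p = 0.00169). The other tested probes passed too, at 1.23 ± 0.15 and 0.45 ± 0.07 against DOX (limma, adjusted p = 3.02e-05 and 0.00031). In DOX against PBS the fold was -0.54 ± 0.15 and missed the threshold (limma, adjusted p = 0.136). Without DOX 2 it was -0.69 and passed (limma, adjusted p = 0.0055), as did the second probe at -0.56 (adjusted p = 0.0377). Over the whole table, leaving out DOX 2 raised the probes that passed from 80 to 487. Other single arrays left out gave folds as weak as -0.43, and the limma adjusted p reached 0.381 over the alternatives. Sema3e, its known ligand, stayed near the background limit at 6.79 to 6.99 over all arrays, with a fold of -0.06 against DOX (limma, adjusted p = 0.477).

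**Figure D2:**
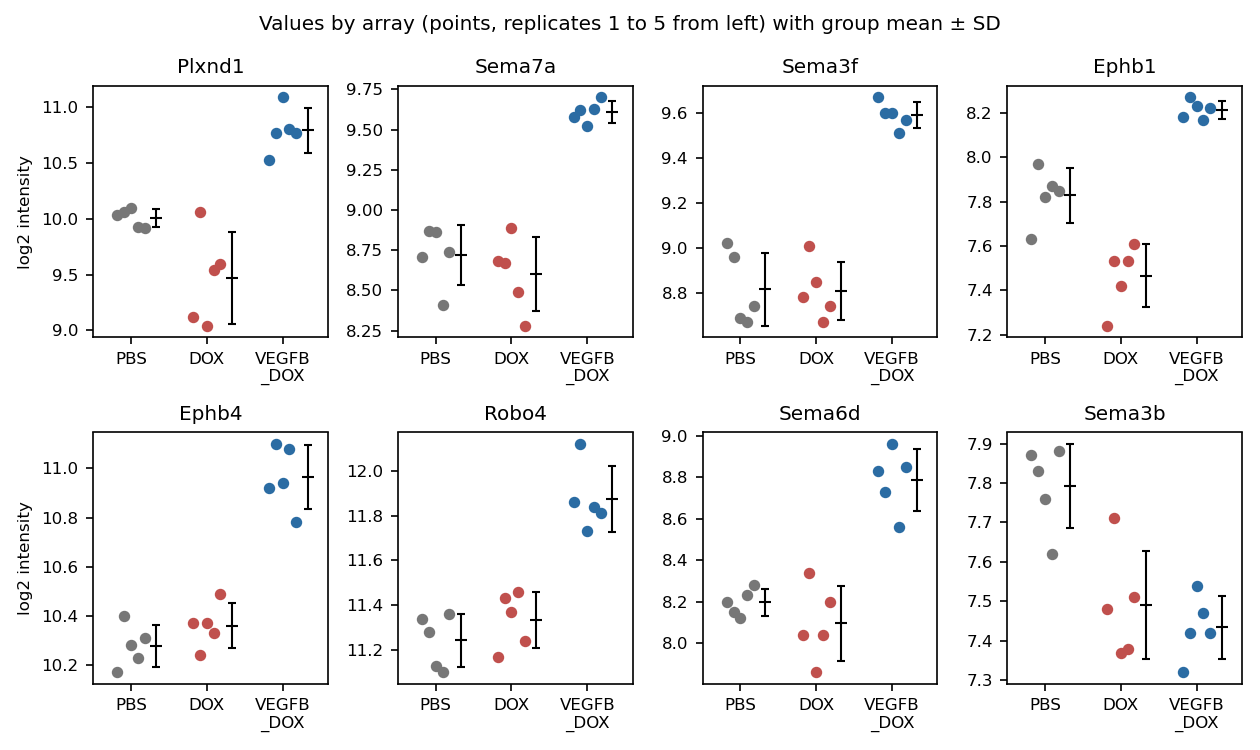
Log2 intensity (y axis, a scale of its own in each panel) on each array for 8 guidance genes, 5 arrays per group (points), with the group mean ± SD beside them. VEGFB_DOX arrays lie above all others in the first 7 panels, DOX 2 lies with PBS for Plxnd1, and PBS lies highest for Sema3b.

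Semaphorins made up 7 of the 18 genes that passed somewhere: 5 of 17 tested were higher and 0 lower against DOX (9% and 4.71% of all tested genes), and 5 were higher and 2 lower against PBS (9.35% and 6.78% of all). Sema7a, a membrane-anchored semaphorin that signals through integrins and plexin C1, read 8.71, 8.87, 8.86, 8.41 and 8.74 on PBS, 8.68, 8.67, 8.89, 8.49 and 8.28 on DOX, and 9.58, 9.62, 9.52, 9.63 and 9.7 on VEGFB_DOX arrays. The VEGFB_DOX arrays were all above the rest, while PBS and DOX overlapped. Sema7a rose by 1.01 ± 0.10 (2.01-fold) over DOX (limma, adjusted p = 4.44e-06) and by 0.89 ± 0.10 over PBS (adjusted p = 2e-05). Plxnc1 lay near background, with a fold of -0.07 against DOX (limma, adjusted p = 0.605). Itga1, an integrin alpha subunit, rose by 0.39 ± 0.08 (limma, adjusted p = 0.00345), while Itgb1, a beta subunit, was at 0.17 and 0.09 on its tested probes (adjusted p = 0.252 and 0.615).

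Sema3f, a secreted ligand of neuropilin-2 that repels axons and vessels, read 9.02, 8.96, 8.69, 8.67 and 8.74 on PBS, 8.78, 9.01, 8.85, 8.67 and 8.74 on DOX, and 9.67, 9.6, 9.6, 9.51 and 9.57 on VEGFB_DOX arrays. PBS and DOX overlapped, and VEGFB_DOX lay above both. Sema3f rose by 0.78 ± 0.08 over DOX (limma, adjusted p = 7.06e-06) and by 0.77 ± 0.08 over PBS (adjusted p = 9.52e-06), and its second probe by 0.73 against DOX (adjusted p = 3.43e-05). Sema3b is another secreted class 3 ligand. Its signal (ILMN_3092046) read 7.87, 7.83, 7.76, 7.62 and 7.88 on PBS, 7.48, 7.71, 7.37, 7.38 and 7.51 on DOX, and 7.32, 7.42, 7.54, 7.47 and 7.42 on VEGFB_DOX arrays. Both treated groups lay low, with DOX 2 alone inside the PBS range. Sema3b fell by 0.36 ± 0.07 in VEGFB_DOX against PBS (limma, adjusted p = 0.00358), its fold in DOX against PBS was -0.30 ± 0.07 (adjusted p = 0.095), and VEGFB_DOX and DOX differed by -0.06 (adjusted p = 0.733). Without DOX 2 the fold in DOX against PBS was -0.36 and passed (limma, adjusted p = 0.0122). Over all alternatives the limma adjusted p of that fold ran from 0.0093 to 0.286. A second probe gave -0.41 in VEGFB_DOX against PBS (limma, adjusted p = 0.00478), while ILMN_3078526 gave -0.08 and did not pass.

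The class 6 semaphorins are membrane ligands that also act as receptors. Sema6d, known from heart development, read 8.2, 8.15, 8.12, 8.23 and 8.28 on PBS, 8.04, 8.34, 7.86, 8.04 and 8.2 on DOX, and 8.83, 8.73, 8.96, 8.56 and 8.85 on VEGFB_DOX arrays. Sema6a read 8.12, 8.02, 7.88, 8.21 and 8.33 on PBS, 7.87, 7.99, 8.18, 7.98 and 8.03 on DOX, and 8.58, 8.49, 8.17, 8.68 and 8.66 on VEGFB_DOX arrays. For Sema6d the VEGFB_DOX arrays stood clear of the rest. For Sema6a, 4 of 5 did, and VEGFB_DOX 3 fell among the others. Sema6d rose by 0.69 ± 0.09 over DOX (limma, adjusted p = 4.94e-05) and 0.59 ± 0.09 over PBS (adjusted p = 0.000271). Sema6a rose by 0.51 ± 0.10 (limma, adjusted p = 0.00297) and 0.40 ± 0.10 (adjusted p = 0.0132). Dimmer probes of both genes did not pass, ILMN_3103992 of Sema6d at 0.01 against DOX, and ILMN_2462284 and ILMN_2705946 of Sema6a at 0.07 and 0.02.

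Sema5a and Sema4b passed by less. Sema5a, a transmembrane semaphorin with thrombospondin repeats, read 8.19 to 8.47 on PBS, 8.3 to 8.55 on DOX and 8.31 to 8.98 on VEGFB_DOX arrays, so the groups overlapped through VEGFB_DOX 3, the lowest of its group. Its folds were 0.35 ± 0.10 over DOX (limma, adjusted p = 0.0423) and 0.37 ± 0.10 over PBS (adjusted p = 0.0276). The first call was lost without PBS 3, 4 or 5, DOX 2, 3, 4 or 5, or VEGFB_DOX 1, 2, 4 or 5, with folds of 0.29 to 0.35, and the second without PBS 1 or 5 or VEGFB_DOX 1, 2, 4 or 5, at 0.31 to 0.37. The first was also lost with no filter on dim probes and with only the DOX and VEGFB_DOX groups fitted (limma, adjusted p = 0.0641 and 0.0807). Both calls were lost with PBS 4, PBS 5, DOX 5 and VEGFB_DOX 5 all left out (limma, adjusted p = 0.128 and 0.11). A second Sema5a probe gave 0.24 against DOX (limma, adjusted p = 0.165) and 0.34 against PBS (adjusted p = 0.0323; lost without PBS 1, 2 or 5 or VEGFB_DOX 2, 4 or 5, at 0.28 to 0.34), while ILMN_2565924 gave -0.18 against DOX (adjusted p = 0.108). Sema4b, a membrane semaphorin, read 8.53 to 8.91 on PBS, 8.43 to 8.66 on DOX and 8.24 to 8.68 on VEGFB_DOX arrays. It fell by 0.33 ± 0.10 in VEGFB_DOX against PBS (limma, adjusted p = 0.0326). The call was lost without PBS 4 or 5 or VEGFB_DOX 1, 2, 3 or 4, with folds of -0.32 to -0.27. It was also lost with no filter on dim probes and with only the PBS and VEGFB_DOX groups fitted (limma, adjusted p = 0.0513 and 0.0551). Leaving out DOX 2 and VEGFB_DOX 3 together lost it too, at -0.30 (limma, adjusted p = 0.0713).

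Among Eph receptors, 2 of 8 tested rose in VEGFB_DOX hearts against either group, where 9% of all tested genes rose against DOX and 9.35% against PBS. Ephb4, the venous receptor, read 10.17, 10.4, 10.28, 10.23 and 10.31 on PBS, 10.37, 10.24, 10.37, 10.33 and 10.49 on DOX, and 10.92, 11.1, 10.94, 11.08 and 10.78 on VEGFB_DOX arrays. VEGFB_DOX lay above PBS and DOX, which overlapped. Ephb4 rose by 0.60 ± 0.08 over DOX (limma, adjusted p = 3.26e-05) and 0.69 ± 0.08 over PBS (adjusted p = 1.11e-05). Its other tested probes passed as well, at 0.62 ± 0.17 and 0.29 ± 0.07 against DOX (limma, adjusted p = 0.0279 and 0.017). The first of these calls was lost without DOX 3 or 5 or VEGFB_DOX 1, 2 or 3, at 0.51 to 0.56, and the second without DOX 1 or VEGFB_DOX 1, at 0.25 each.

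Ephb1, a receptor of B-type ephrins, read 7.63, 7.97, 7.82, 7.87 and 7.85 on PBS, 7.24, 7.53, 7.42, 7.53 and 7.61 on DOX, and 8.18, 8.27, 8.23, 8.17 and 8.22 on VEGFB_DOX arrays. The 3 groups did not overlap: DOX lay lowest, then PBS, then VEGFB_DOX. In DOX against PBS, 2 of 81 member probes lay wholly lower without overlap, this one and a Sema3b probe, where 0.953% of all tested probes did, and 0 lay wholly higher, where 0.981% did. Ephb1 rose by 0.75 ± 0.08 over DOX (limma, adjusted p = 3.86e-06) and by 0.39 ± 0.08 over PBS (adjusted p = 0.00268). Its fold in DOX against PBS, -0.36 ± 0.08, just missed the threshold (limma, adjusted p = 0.051), and it passed without PBS 1 (-0.41), DOX 2 (-0.38) or DOX 5 (-0.40). Over all alternatives the limma adjusted p of that fold ran from 0.0223 to 0.218. A second tested probe, ILMN_1236530, gave 0.03 against DOX and did not pass.

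Ephrins moved in both directions: 1 of 6 was higher and 1 lower against DOX (9% and 4.71% of all tested genes), and 2 were higher and 1 lower against PBS (9.35% and 6.78% of all). Efna1, an A-type ephrin known in vessels, read 9.36 to 9.51 on PBS, 9.31 to 9.53 on DOX and 9.6 to 9.98 on VEGFB_DOX arrays, the last group above the others. It rose by 0.37 ± 0.08 over DOX (limma, adjusted p = 0.00566) and 0.32 ± 0.08 over PBS (adjusted p = 0.0126). The call against PBS was lost with PBS 4, PBS 5, DOX 5 and VEGFB_DOX 5 all left out, at 0.32 (limma, adjusted p = 0.0525). Efnb2, the arterial ligand of EphB4, read 6.82 to 7.26 on PBS, 6.86 to 7.44 on DOX and 7.07 to 7.58 on VEGFB_DOX arrays, with overlap. Its fold was 0.34 ± 0.11 against PBS (limma, adjusted p = 0.0452) and 0.22 against DOX (adjusted p = 0.24). The call against PBS was lost when any of PBS 3, 4 or 5, DOX 2, 3 or 4, or VEGFB_DOX 1 to 4 was left out, at 0.28 to 0.35, and the fold was 0.71 with background subtracted (limma, adjusted p = 0.0578). No filter on dim probes, no variance trend and a robust variance prior also lost the call (limma, adjusted p = 0.056, 0.0582 and 0.0536). Leaving out DOX 2 and VEGFB_DOX 3 together lost it too, at 0.32 (limma, adjusted p = 0.0996).

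Efna5, an A-type ephrin, read 9.75 to 10.11 on PBS, 9.93 to 10.28 on DOX and 9.53 to 9.93 on VEGFB_DOX arrays, lowest in VEGFB_DOX with a touch of overlap. It fell by 0.33 ± 0.09 from DOX to VEGFB_DOX (limma, adjusted p = 0.0316), and its fold against PBS was -0.24 (adjusted p = 0.118). Without DOX 1, 2 or 3 or VEGFB_DOX 3 or 4 the first call was lost, at -0.34 to -0.27, and without DOX 2 and VEGFB_DOX 3 together it was lost at -0.22 (limma, adjusted p = 0.165). That call was also lost with no filter on dim probes and with only the DOX and VEGFB_DOX groups fitted (limma, adjusted p = 0.0696 and 0.0528). Efnb3 read 7.18 to 7.49 on PBS, 7.03 to 7.39 on DOX and 7.02 to 7.15 on VEGFB_DOX arrays. It fell by 0.22 ± 0.07 against PBS (limma, adjusted p = 0.0477), a call lost without PBS 2, 3, 4 or 5, DOX 4 or any 1 VEGFB_DOX array, at -0.23 to -0.17. With background subtracted it was -0.44 (limma, adjusted p = 0.045). The call was also lost with no filter on dim probes, without the variance trend and with the commonest value as background mode (limma, adjusted p = 0.0666, 0.0512 and 0.0519). Leaving out DOX 2 and VEGFB_DOX 3 together lost it, at -0.22 (limma, adjusted p = 0.0735). So did leaving out PBS 4, PBS 5, DOX 5 and VEGFB_DOX 5, at -0.17 (adjusted p = 0.145). Efnb1, a B-type ephrin with a probe well above background, had folds of 0.13, -0.05 and 0.07 in DOX against PBS, VEGFB_DOX against DOX and VEGFB_DOX against PBS, with limma adjusted p of 0.747, 0.838 and 0.753.

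**Figure D3:**
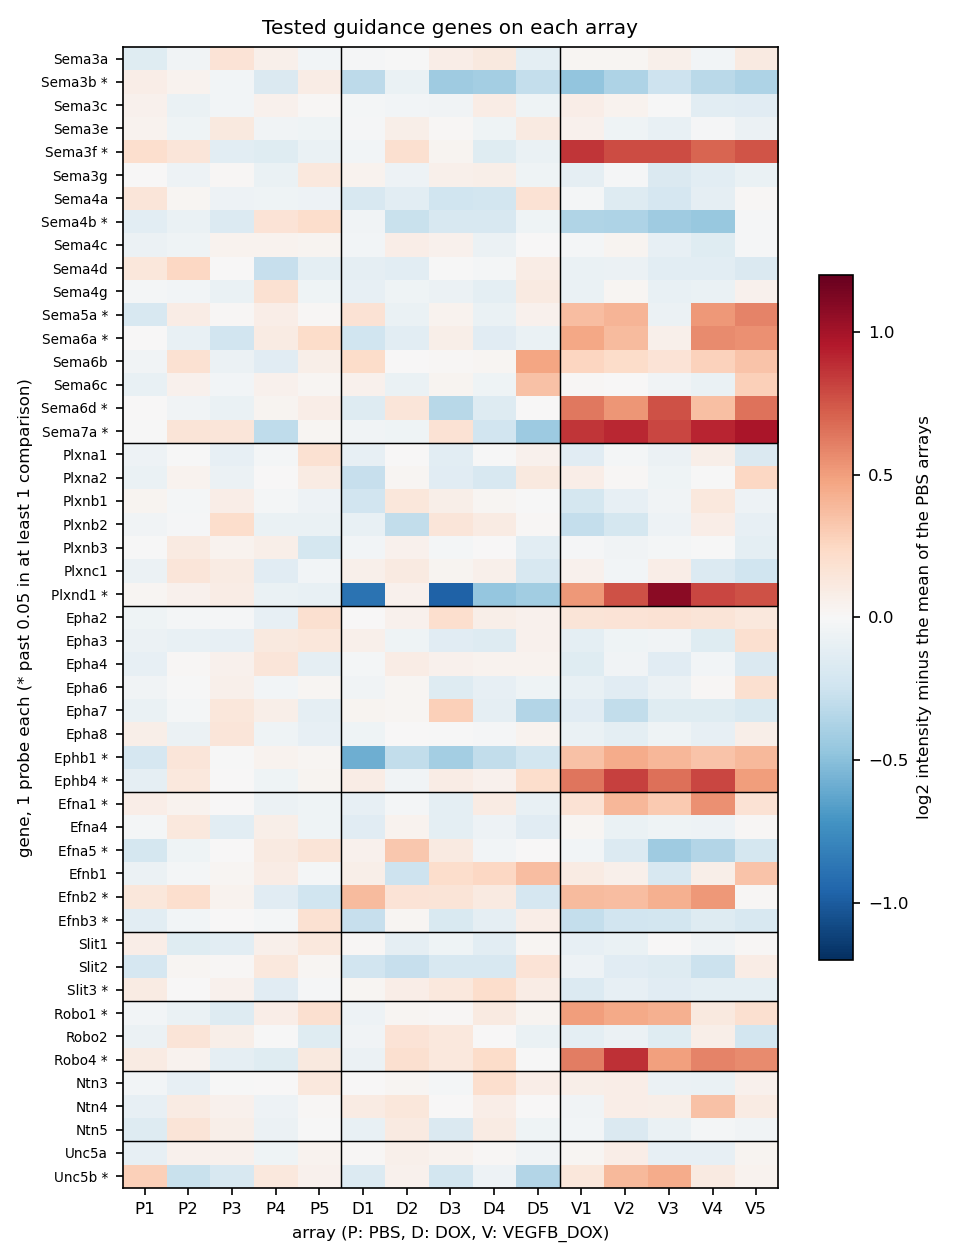
Each tested guidance gene (rows, grouped by family) on each of the 15 arrays (columns), coloured by log2 intensity minus the mean of the 5 PBS arrays; genes with an asterisk passed in at least 1 comparison and are shown on their probe of smallest p, the others on their brightest tested probe. The red blocks on the VEGFB_DOX arrays belong to a few genes such as Sema7a, Plxnd1, Sema3f, Ephb4 and Robo4, and most rows stay pale.

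Of the Robo receptors, 2 of 3 rose in VEGFB_DOX against DOX and against PBS, where 9% and 9.35% of all tested genes did. Robo4, known for stabilising the vessel wall, read 11.34, 11.28, 11.13, 11.1 and 11.36 on PBS, 11.17, 11.43, 11.37, 11.46 and 11.24 on DOX, and 11.86, 12.12, 11.73, 11.84 and 11.81 on VEGFB_DOX arrays. Every VEGFB_DOX array was higher than every PBS and DOX array. Robo4 rose by 0.54 ± 0.08 over DOX (limma, adjusted p = 0.00031) and by 0.63 ± 0.08 over PBS (adjusted p = 7.52e-05). Its 2 dim tested probes, ILMN_1219026 and ILMN_2438741, gave 0.00 and 0.06 against DOX and did not pass. Robo1, the general Slit receptor, read 7.03 to 7.38 on PBS, 7.12 to 7.29 on DOX and 7.3 to 7.69 on VEGFB_DOX arrays. It rose by 0.32 ± 0.08 over DOX (limma, adjusted p = 0.0152) and 0.34 ± 0.08 over PBS (adjusted p = 0.00821). The call against DOX was lost with DOX 2 and VEGFB_DOX 3 both left out, at 0.30 (limma, adjusted p = 0.0579).

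Of the Slit ligands 0 of 3 were higher and 1 was lower against DOX, where 9% and 4.71% of all tested genes were. Slit3 read 7.88, 7.78, 7.83, 7.64 and 7.76 on PBS, 7.8, 7.86, 7.9, 7.99 and 7.87 on DOX, and 7.61, 7.68, 7.64, 7.66 and 7.66 on VEGFB_DOX arrays. Each VEGFB_DOX array was below each DOX array, and PBS overlapped both. Slit3 fell by 0.23 ± 0.06 from DOX to VEGFB_DOX (limma, adjusted p = 0.0197), a call lost without DOX 4 at -0.21 (adjusted p = 0.0648) and without DOX 2 and VEGFB_DOX 3 together at -0.24 (adjusted p = 0.0501), and a second probe, ILMN_2643545, gave -0.04. Slit2 had folds of -0.14, 0.04 and -0.10 in the 3 comparisons and Slit1 -0.05, 0.01 and -0.04, and neither passed. Unc5b, the netrin receptor of endothelial tip cells, read 7.17 to 7.72 on PBS, 7.09 to 7.49 on DOX and 7.48 to 7.88 on VEGFB_DOX arrays, with overlap. It rose by 0.37 ± 0.11 against DOX (limma, adjusted p = 0.0329), and its fold was 0.22 against PBS (adjusted p = 0.208). Without DOX 1, 3, 4 or 5 or VEGFB_DOX 2 or 3 the call was lost, at 0.32 to 0.39. Leaving out DOX 2 and VEGFB_DOX 3 together lost it as well, at 0.37 (limma, adjusted p = 0.0511). So did leaving out PBS 4, PBS 5, DOX 5 and VEGFB_DOX 5, at 0.37 (adjusted p = 0.0533). The netrin genes Ntn3, Ntn4 and Ntn5 passed in no comparison, with folds of -0.05 to 0.04 on their brightest probes against DOX. Over their 5 tested probes the largest fold against DOX was 0.13. They were the only netrin genes among the members, so Ntn1 was not followed.

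In all, 31 tested members passed nowhere. Their folds on the brightest tested probe ran from -0.14 (Slit2) to 0.15 (Sema6b) in DOX against PBS, from -0.16 (Epha7) to 0.15 (Plxna2) in VEGFB_DOX against DOX, and from -0.18 (Epha7) to 0.25 (Sema6b) in VEGFB_DOX against PBS. The smallest limma adjusted p among them was 0.0561, for Epha2, a receptor of A-type ephrins, at 0.16 in VEGFB_DOX against PBS. A mean signal under 7, close to background, was found for 15 of the 31, and there a change would be hard to detect. Others had clear signal: Plxna2 averaged 9.46, Plxnb2 9.08, Efnb1 8.95 and Sema4a 8.60. Plxna2, a receptor of class 6 and class 3 semaphorins, had a fold of 0.15 ± 0.08 against DOX (limma, adjusted p = 0.314), and Plxnb2, a receptor of class 4 semaphorins, -0.09 ± 0.09 (adjusted p = 0.656). The remaining 13 members, Efna2, Efna3, Epha1, Epha10, Epha5, Ephb3, Ephb6, Plxna3, Plxna4, Sema3d, Sema4f, Unc5c and Unc5d, had no probe above background on enough arrays to be tested, and their highest single value was 7.01.

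**Figure D4:**
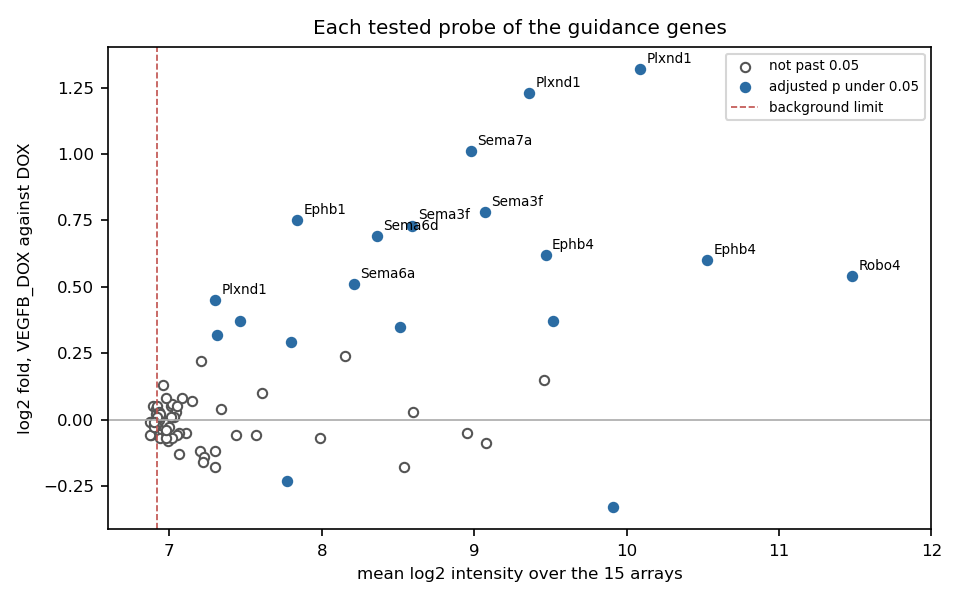
Log2 fold in VEGFB_DOX against DOX (y axis) by mean log2 intensity over the 15 arrays (x axis) for the 81 tested probes of the guidance genes, with the background limit of 6.92 as a dashed line. Filled points passed an adjusted p of 0.05 (17 higher, 2 lower), the genes with the larger folds are named, and probes near the limit cluster around 0.

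At the level of probes, 17 of 81 were higher and 2 lower in VEGFB_DOX against DOX, where 6.42% and 3.17% of all tested probes were. With each array's lowest value subtracted as background, folds of dim probes grew over 1.5 times. Against DOX, Ephb1 went from 0.75 to 1.14, Robo1 from 0.32 to 0.58, Unc5b from 0.37 to 0.65 and Slit3 from -0.23 to -0.36. Sema3b went against PBS from -0.36 to -0.59. These larger folds depend on the value subtracted. Several genes carry a bright probe that passed and a dim one that did not, as the plot of fold by signal shows for the crowd at the background limit. Probes of a gene share its transcripts, so they are not replicates. An unadjusted p under 0.05 was found for 24 of 81 probes against DOX (29.6%, with 21.8% of all tested probes) and for 29 against PBS (35.8%, with 24% of all). Against PBS, 18 probes were higher and 4 lower by adjusted p, where 6.72% and 4.71% of all tested probes were. Groups did not overlap for 13 probes that were higher and 2 that were lower in VEGFB_DOX against DOX, with 5.19% and 2.56% of all tested probes, and for 12 and 4 probes in VEGFB_DOX against PBS, with 5.46% and 4.24% of all.

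Genes that act with the guidance families were followed in a list of 67 co-receptors and signalling genes, of which 51 were tested. In VEGFB_DOX against DOX 12 rose and 0 fell, where 9% and 4.71% of all tested genes did, with a list median of 0.02. Nrp1, the neuropilin that serves class 3 semaphorins and VEGF, read 9.92 to 10.07 on PBS, 9.47 to 10.11 on DOX and 10.15 to 10.5 on VEGFB_DOX arrays (ILMN_1247094). DOX 2 was the highest DOX array, as for Plxnd1. Nrp1 rose by 0.59 ± 0.11 against DOX on this probe (limma, adjusted p = 0.00132), and its fold was 0.29 against PBS (adjusted p = 0.096). Without DOX 2 this probe passed in DOX against PBS at -0.40 (limma, adjusted p = 0.0284) and in VEGFB_DOX against PBS at 0.29 (adjusted p = 0.0328). Nrp2, the neuropilin of Sema3f, rose by 0.41 ± 0.12 (limma, adjusted p = 0.0428) and, on a dimmer probe, by 0.22 ± 0.05 (adjusted p = 0.0139), while ILMN_2766737 gave -0.04. The first Nrp2 call was lost without PBS 1, DOX 1, 3, 4 or 5, or VEGFB_DOX 1, 2, 3 or 4, at 0.35 to 0.42.

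Downstream genes among the 12 included Vav3, a guanine nucleotide exchange factor, at 0.75 ± 0.08 (limma, adjusted p = 9.01e-06), with 0.03 on its other tested probe, and Rras, a small GTPase that plexins switch off, at 0.54 ± 0.07 (adjusted p = 6.47e-05). Dpysl2, a collapsin response mediator, rose by 0.64 ± 0.08 (limma, adjusted p = 2.02e-05), with 0.30 and -0.07 on its other tested probes, and Fes, a kinase in plexin signalling, by 0.51 ± 0.09 (adjusted p = 0.000991). Cfl1, the actin-severing protein cofilin, rose by 0.60 ± 0.08 (limma, adjusted p = 9.74e-05) and Nck1, an adaptor, by 0.42 ± 0.10 (adjusted p = 0.00908). Cxcl12 and its receptor gene Cxcr4, a chemokine pair that guides cells and axons, rose by 0.29 ± 0.08 and 0.60 ± 0.14 (limma, adjusted p = 0.0273 and 0.00829). The Cxcl12 call was lost without DOX 1 or 3 or VEGFB_DOX 2 or 4, at 0.24 to 0.28, and its other tested probes, ILMN_2737302 and ILMN_3158250, gave 0.02 and 0.04. Kit, a receptor tyrosine kinase, rose by 1.24 ± 0.18 (limma, adjusted p = 0.000139). Kit read 8.25 to 8.65 on PBS, 7.61 to 8.59 on DOX and 8.81 to 9.76 on VEGFB_DOX arrays, and DOX 2 was again the DOX array within the PBS range. The Kit fold in DOX against PBS was -0.57 ± 0.18 (limma, adjusted p = 0.215), and without DOX 2 it was -0.73 and passed (adjusted p = 0.0188). Against PBS, 10 partners rose and 3 fell, where 9.35% and 6.78% of all tested genes did. Those that fell were Neo1, a netrin receptor, by 0.34 ± 0.08 (limma, adjusted p = 0.00764), Farp2 by 0.45 ± 0.09 (adjusted p = 0.0034) and Dpysl4 by 0.35 ± 0.09 (adjusted p = 0.0126), with 0.01 and 0.05 on the other tested Dpysl4 probes. In DOX against PBS 0 of 51 passed in limma, where 0.439% of all tested genes did.

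Markers of other cell types moved beside the guidance genes. Of 11 endothelial markers 8 rose against DOX and 9 against PBS, with medians of 0.61 and 0.70, and 0 passed in DOX against PBS. Their mean level was 10.15 to 10.38 on PBS, 10.23 to 10.4 on DOX and 10.83 to 10.99 on VEGFB_DOX arrays, so the VEGFB_DOX arrays did not overlap the rest. Dividing-cell markers rose in 7 of 7 against DOX, from a mean of 7.11 to 7.46 on DOX to 7.86 to 9.11 on VEGFB_DOX arrays, with PBS at 7.14 to 7.33. The highest were DOX 2 (7.46) and VEGFB_DOX 3 (9.11), and the other arrays of these groups gave 7.11 to 7.2 and 7.86 to 8.58. Of 10 smooth muscle and pericyte markers 6 rose against DOX (mean 9.22 to 9.46, 9.01 to 9.32 and 9.49 to 9.59 in PBS, DOX and VEGFB_DOX), and of 5 lymphatic markers 3 fell (8.7 to 8.93, 8.74 to 8.91 and 8.42 to 8.67). Against PBS the mural list had 3 higher and 1 lower (Myh11) and the lymphatic list 2 lower, and Kcnj8 of the mural list was lower in DOX against PBS. Of the 5 tested neuron and 5 tested Schwann cell markers 0 passed against DOX, while against PBS Stmn2 (0.34) and Pmp22 (0.33) were higher and Tubb3 (-0.17) lower (limma, adjusted p = 0.0373, 0.0273 and 0.0272).

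Blood and connective tissue genes moved mainly against PBS. Of 9 macrophage markers, C1qb, C1qc, Fcgr1 and Lyve1 were higher in VEGFB_DOX than in PBS, with list means of 8.32 to 8.83 on PBS, 8.65 to 8.82 on DOX and 8.71 to 9.15 on VEGFB_DOX arrays. Of 5 neutrophil markers, S100a8 and S100a9 were higher in DOX and in VEGFB_DOX than in PBS (6.95 to 7.03, 7.35 to 7.77 and 7.2 to 7.63). Of 5 red-cell genes, 3 were lower in VEGFB_DOX than in PBS. Of 9 fibroblast markers, Col1a1 was higher in VEGFB_DOX than in either group and Pdgfra lower than in PBS (9.32 to 9.49, 9.17 to 9.48 and 9.29 to 9.73). Of 10 ventricular cardiomyocyte markers 0 passed against DOX. Among them Myh6, Myl2, Myl3, Actc1, Mb and Atp2a2 averaged 14.41 to 14.62, near the highest value of 14.93, where a change may be hard to detect. Atp2a2 was lower in VEGFB_DOX than in PBS on a probe other than its brightest, which gave -0.01. Of 2 tested atrial markers 0 passed in any comparison. The part of any of these cell types in the guidance result was not tested.

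The guidance genes were also set beside the endothelial markers array by array. Each member's value was taken minus the mean of the 11 endothelial markers on the same array, a scale chosen after the values were seen. The endothelial mean itself moved by 0.62 against DOX and 0.65 against PBS. Cldn5, Kdr and Ptprb of the 11 did not pass against DOX, and the Kdr probe averaged 6.95, close to background. Of the 12 genes higher against DOX, 2 were still higher: Plxnd1 by 0.71 ± 0.14 (limma, adjusted p = 6.6e-05) and Sema7a by 0.39 ± 0.11 (adjusted p = 0.00186). These had the largest plain folds, 1.32 and 1.01, and the 12 were picked as higher on the same arrays. The share of all tested genes past the threshold on this scale was not computed, so the count has no background beside it. Sema3f, Ephb1, Sema6d, Ephb4, Robo4 and Sema6a were at 0.16, 0.13, 0.07, -0.01, -0.08 and -0.11 relative to the markers, none past the threshold. Efna1, Unc5b, Sema5a and Robo1 were lower relative to them, by -0.25, -0.25, -0.27 and -0.30 (limma, adjusted p = 0.0135, 0.0367, 0.0242 and 0.00589). Against PBS, Sema7a was higher by 0.24 ± 0.11 (limma, adjusted p = 0.0381), and Plxnd1 was not past the threshold at 0.14 ± 0.14 (adjusted p = 0.349). Ephb1, Sema6a, Efna1, Efnb2, Robo1 and Sema5a were lower than the markers there, at -0.26, -0.24, -0.33, -0.31, -0.31 and -0.28, all past the threshold. As the markers rose, a gene that moved little was nearly bound to come out lower. Unc5a, at -0.03 and -0.01 against DOX and PBS before, was at -0.65 and -0.66 here (limma, adjusted p = 5.38e-09 and 2.6e-09). With unmoved probes shifted too, the adjusted p was easier to pass. Unc5b at 0.22 ± 0.11 against PBS before had 0.208, and Sema7a at 0.24 ± 0.11 here had 0.0381 (limma, adjusted p). In DOX against PBS, where the marker mean moved by 0.03, Plxnd1 was at -0.57 ± 0.14 and Ephb1 at -0.39 ± 0.10 on this scale (limma, adjusted p = 0.0983 and 0.0945). Since background compresses dim probes more than bright ones, such differences between genes depend on signal as well, and they do not measure the share of endothelial cells.

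**Figure D5:**
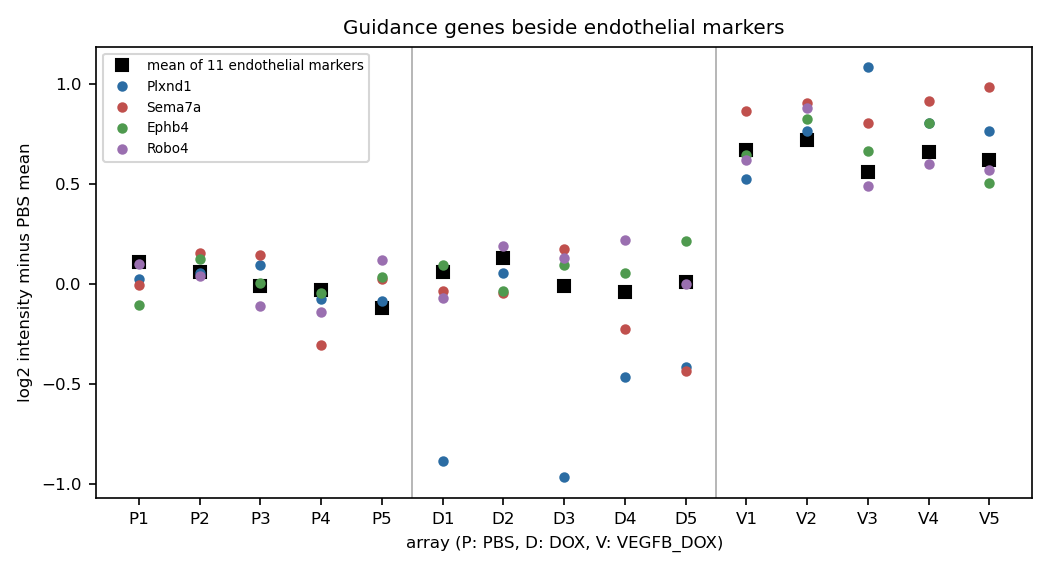
Log2 intensity minus the mean of the 5 PBS arrays (y axis) on each array (x axis) for Plxnd1, Sema7a, Ephb4 and Robo4 (circles) and for the mean of 11 endothelial markers (squares). Ephb4 and Robo4 lie near the squares on the VEGFB_DOX arrays, Sema7a lies above them, and on 4 of 5 DOX arrays Plxnd1 lies well below them.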

How the data were processed

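The authors deposited log2 intensities of 45281 Illumina probes on 15 arrays. The values show quantile normalization between arrays: the highest value of each array aside, sorted values of any pair of arrays differ by at most 0.01. The median of all values is 6.92. The scale was read from the values, and the software is not given in the sources used here. Per the labels' protocols, TRIsure and NucleoSpin RNA II kits gave the RNA, an Agilent Bioanalyser checked it and an Ambion kit labelled it. A raw table with 15 sample columns whose names match no label was not used.

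Background was the mode of all values, 6.80, with an SD of 0.0729 from the values below it, and its 95% limit was 6.92. Probes above it on at least 5 arrays were tested, 24861 in all. They were fitted with limma 3.58.1 in R 4.3.3, with a mean per group, 12 residual degrees of freedom, a variance trend over intensity and Benjamini-Hochberg adjustment over all tested probes within each comparison, at 0.05. The procedure was run on simulated data with noise drawn independently for each probe and array. That setting holds no deviations shared across probes, so it cannot vouch for the adjusted p of these arrays. Precision is limited by the 5 arrays per group: the median SE of a fold was 0.0704. No batch is named in the labels or the table.

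Symbols came from the platform annotation: 34885 probes have 1 symbol, 18 several and 10378 none. All 155 member probes matched the table of mouse genes, with 0 symbols updated. Members past the threshold in any comparison are named on their probe of smallest p, with other probes where these disagree. Other tested members are described on their brightest probe, and partner genes are named when past the threshold. Members and lists were chosen with earlier results of these data known.

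Alternatives covered the filter, variance prior, array weights, background subtraction, the arrays in the fit, the probe per gene and a replicate block. For background subtraction, each array's lowest intensity was subtracted on the unlogged scale and 16 was added before taking log2. The background mode given above was not used for it. A background mode from the commonest value and the scale relative to endothelial markers were added after the data were seen. Figures used Python 3.11.15 and matplotlib 3.10.9. Coordinates of probes are not given, since the table names no genome build.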

Additional observations from a re-analysis of the deposited data

Results flagged for a closer look

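Among the 54 groups of 5 arrays formed by the 18 genes past the threshold, 2 held an array far from the rest, where chance gives about 1 in 20 such groups. Sema4b read 8.68 on VEGFB_DOX 5 and 8.24 to 8.34 on the other 4 VEGFB_DOX arrays, a gap of 0.773 of the group's range. Sema5a read 8.19 on PBS 1 and 8.39 to 8.47 on the other 4 PBS arrays, a gap of 0.714 of the range, above the critical 0.71.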

How the results depend on the processing

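In VEGFB_DOX against DOX, 14 members passed, and 10 to 15 did over the alternatives. In VEGFB_DOX against PBS, 15 passed, and 11 to 17 did. In DOX against PBS the count was 0. It was 1 with no filter, with the filter for all arrays of a group, without the variance trend, with background subtracted and with the commonest value as background mode, each time for Ephb1. It was 2 with array weights and 3 with DOX 2 and VEGFB_DOX 3 both left out, and leaving out single arrays gave 0 to 3, with 3 without DOX 2 and 1 without PBS 1 or without DOX 5. All these calls were lower in DOX. Over the whole table, 80 probes passed in DOX against PBS, 487 without DOX 2 and 2 without DOX 1.

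Same-numbered arrays of different groups deviated together for some numbers only. The correlation of their deviations was 0.15, 0.25 and 0.33 for number 1 and 0.41, 0.32 and 0.63 for number 5, but for number 4 it fell to -0.41, and 7 of 15 pairs lay above 0.1, so the numbers were not taken to pair the arrays. The replicate block gave 1, 15 and 16 members in DOX against PBS, VEGFB_DOX against DOX and VEGFB_DOX against PBS, with Ephb1 (-0.36), Efnb2 (0.22) and Sema6b (0.25) added. Of 306 folds of member and partner probes under 26 alternatives, 71 had passed, 49 of these passed under every alternative and 0 were counted as reversed. Some folds near 0 that had not passed did change sign. Sema3f in DOX against PBS, at -0.01, ran from -0.06 to 0.04. With PBS 4, PBS 5, DOX 5 and VEGFB_DOX 5 left out, Epha2 (0.19) and Sema4d (-0.23) passed against PBS. Dim probes limit what can be seen, since 15 of the 31 members that passed nowhere lay close to background.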
